A study of Bos taurus with 48 samples.

Results

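The miRNAs bta-miR-144, bta-miR-451 and bta-miR-486 were followed in cow liver, mammary parenchyma and mammary fat pad. They are the rows of these names in a table of 524 miRNAs, so 3 of 524 were described and each of them was measured in all 48 samples. The ducts of the udder, with their epithelium, lie in the parenchyma, which is embedded in the fat pad. Animals were given milk replacer ad libitum, a restricted amount of milk replacer, or the control feeding. In liver 6 samples were from ad libitum, 6 from restricted and 5 from control animals, in parenchyma 6, 6 and 3, and in fat pad 6, 6 and 4. The labels used here give no age or breed, name no allele, and do not say whether a number that recurs in several tissues marks the same animal.

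The 3 miRNAs are known as miRNAs of the red cell lineage. In mammals miR-144 and miR-451 are cut from a common primary transcript that GATA1 switches on in erythroid precursors, and both rise as red cells mature. miR-451 is unusual in that its hairpin is cut by the slicing enzyme Argonaute and not by Dicer, whereas miR-144 takes the usual Dicer route. miR-486 lies within ANK1, the gene of a red cell membrane protein, and is also made in skeletal and heart muscle. Mature red cells keep these miRNAs, so a tissue piece that holds blood also holds them. In bulk samples, fewer cells of a type and less RNA per cell cannot be told apart. In the RefSeq annotation of the cow genome ARS-UCD2.0, MIR451 and MIR144 are direct neighbours between ERAL1 and FLOT2, and MIR486 lies inside ANK1.

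The values are normalized read counts, that is, reads of a mature miRNA divided by 1 size factor per library. The smallest value above 0 was 6 reads in every library, so a miRNA listed at 0 had at most 5 reads. The reads assigned to miRNAs were estimated at 826776 to 5146724 per liver library, 6193678 to 11291532 per parenchyma library and 2123962 to 9522666 per fat pad library. The 5 epithelial miRNAs of the miR-200 family summed to 45050 to 83969 normalized read counts in the 12 parenchyma samples of the milk replacer groups (ad libitum and restricted together). In the 3 control parenchyma samples they summed to 114, 63.6 and 81.8, within the range of 0 to 347 in the fat pad. The control parenchyma samples are thus low in the defining epithelial miRNAs. Tissue changes of miR-451 and miR-486 and their ratio are therefore also given without these samples, whereas counts over lists of miRNAs include them.

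miR-451 differed in level between all 3 tissues, with liver the highest and parenchyma the lowest. In the liver its lowest, median and highest values were 1202, 4144 and 6697 normalized read counts (mean 3793 ± 1611, SD, n = 17). In parenchyma they were 251, 570 and 1757 (725 ± 451, SD, n = 15), and in the fat pad 1012, 1605 and 2734 (1781 ± 554, SD, n = 16). Of the 17 liver samples 16 lay above every parenchyma sample, and 11 of the 15 parenchyma samples lay below every fat pad sample. By mean level miR-451 took place 80 in liver, 164 in parenchyma and 103 in the fat pad among the 524 miRNAs.

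miR-486 had overlapping ranges in liver and fat pad and was lower in parenchyma. Its lowest, median and highest values were 700, 1452 and 3330 normalized read counts in liver (1532 ± 612, SD, n = 17). In parenchyma they were 206.3, 343 and 2495 (593 ± 637, SD, n = 15), and in the fat pad 1012, 1423 and 1912 (1409 ± 279, SD, n = 16). The SD in parenchyma exceeded the mean because the 3 control samples were high. In the 12 milk replacer parenchyma samples miR-486 was 337 ± 99.6 and never above 496, so all of them lay below every liver and every fat pad sample.

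miR-144 gave few reads and was often near the floor. In liver its lowest, median and highest values were 0, 31.2 and 501 normalized read counts (99.5 ± 148, SD, n = 17), which rested on 0 to 201 reads. The only liver sample at 0 was ad libitum replicate 6, where 6 reads would have given 37.2. In parenchyma miR-144 was listed at 0 in 8 of 15 samples and in the fat pad in 12 of 16. Of the 15 parenchyma values only control replicate 2 with 512 and ad libitum replicate 7 with 93.5 exceeded 6 normalized read counts, and the highest of the 16 fat pad values was 12.8 in restricted replicate 10. Parenchyma libraries were the deepest by their median, and 6 reads were worth at most 3.47 normalized read counts there.

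**Figure D1:**
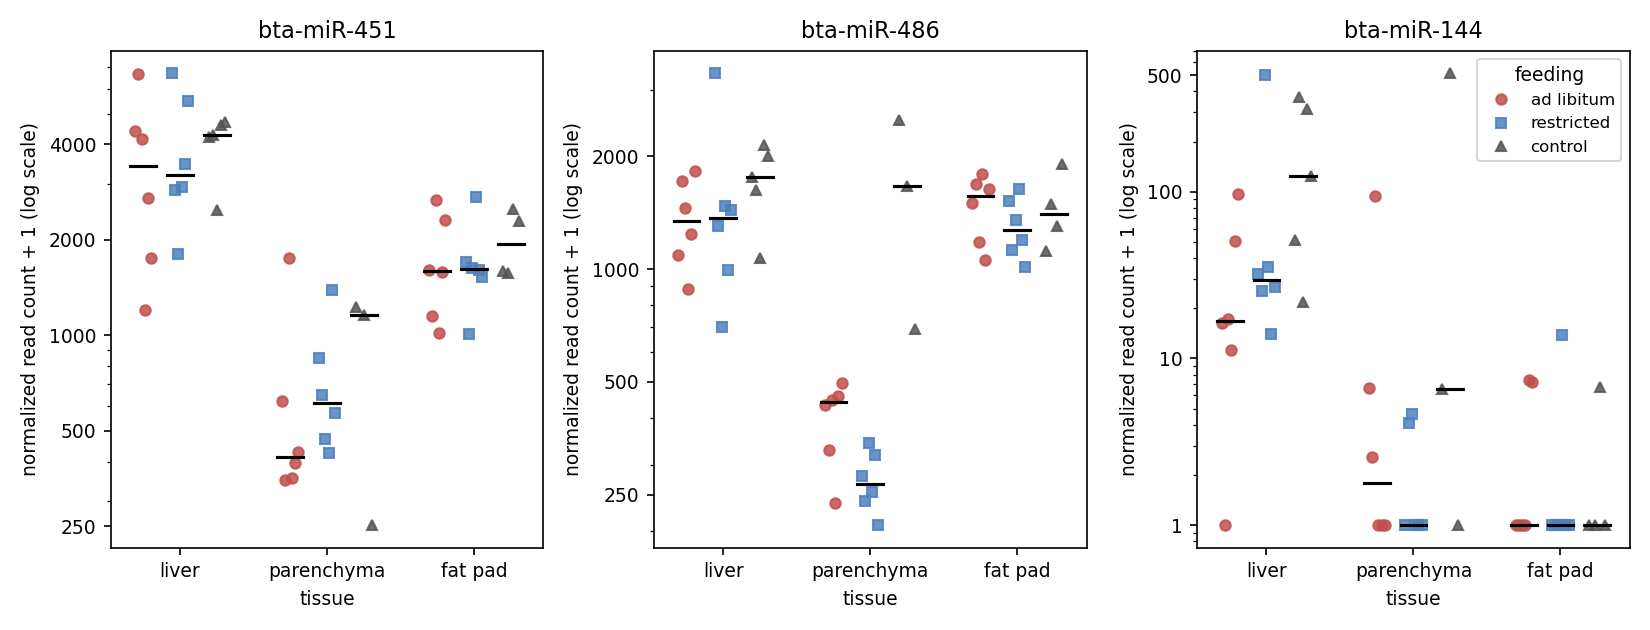
Levels of bta-miR-451, bta-miR-486 and bta-miR-144 by tissue and feeding, as normalized read count + 1 on a log scale; each point is 1 sample and bars are group medians. miR-451 is lowest in parenchyma, miR-486 is low in the 12 milk replacer parenchyma samples and not in the 3 control samples, and miR-144 is listed at 0 (drawn at 1) in most mammary samples.

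The first question was whether the tissues differ. All 3 miRNAs were higher in liver than in parenchyma, where 73.8% of the 343 miRNAs tested passed in either direction and 29.4% passed as higher. For miR-451 the log2 fold change was 2.45 (SE 0.27, adjusted p = 8.54e-10, limma). The change was 1.62 for miR-486 (SE 0.23, adjusted p = 2.93e-07, limma) and 3.31 for miR-144 (SE 0.78, adjusted p = 0.000315, limma). The median over all miRNAs tested was -0.34. Scaling each sample to the same sum moved that median to -0.82 and gave 1.84, 1.01 and 1.90 for miR-451, miR-486 and miR-144. Without control parenchyma the changes were 2.445, 2.052 and 3.442 for miR-451, miR-486 and miR-144. In that fit miR-144 entered through liver, since its mean in milk replacer parenchyma was 8.95, with 7 of 12 samples listed at 0. Over all parenchyma samples its mean was 41.7, with 8 of 15 listed at 0 and 512 in control replicate 2. The miR-144 value depends on the pseudocount of 1, since a pseudocount of 10 gave 1.59. With log2 reads as a covariate it no longer passed (3.11, adjusted p = 0.0974, limma), and liver and parenchyma libraries did not overlap in depth.

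Against the fat pad the members diverged. miR-451 was higher in liver by a log2 fold change of 1.00 (SE 0.20, adjusted p = 2.83e-05, limma), and 12 of 17 liver samples lay above every fat pad sample. miR-486 differed by only 0.04 (SE 0.15, adjusted p = 0.795, limma), and the ranges overlapped broadly. miR-144 was higher in liver by 4.49 (SE 0.61, adjusted p = 4.61e-08, limma), with 15 of 17 liver samples above the highest fat pad value, and by 2.27 with a pseudocount of 10. It entered this test through liver, since its fat pad mean was 1.95 with 12 of 16 samples listed at 0, and its fold change follows the pseudocount and is no exact ratio of levels. In this comparison 78.5% of 325 miRNAs passed in either direction and the median over all was -0.21. Of the 3 miRNAs 2 passed, both as higher, and 36.6% of all miRNAs passed as higher.

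Within the mammary gland, parenchyma had less miR-451 and less miR-486 than the fat pad. The log2 fold change was -1.45 for miR-451 (SE 0.23, adjusted p = 2.05e-06, limma) and -1.62 for miR-486 (SE 0.21, adjusted p = 6.58e-08, limma). Of the 336 miRNAs tested 79.5% passed in either direction and 31.8% passed as lower, with a median of 0.43. Without control parenchyma the change was -1.45 for miR-451 and -2.08 for miR-486. miR-144 had a value of 1.06 (SE 0.75, adjusted p = 0.194, limma) and passed the filter on a mean of 10 only through control replicate 2.

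**Figure D2:**
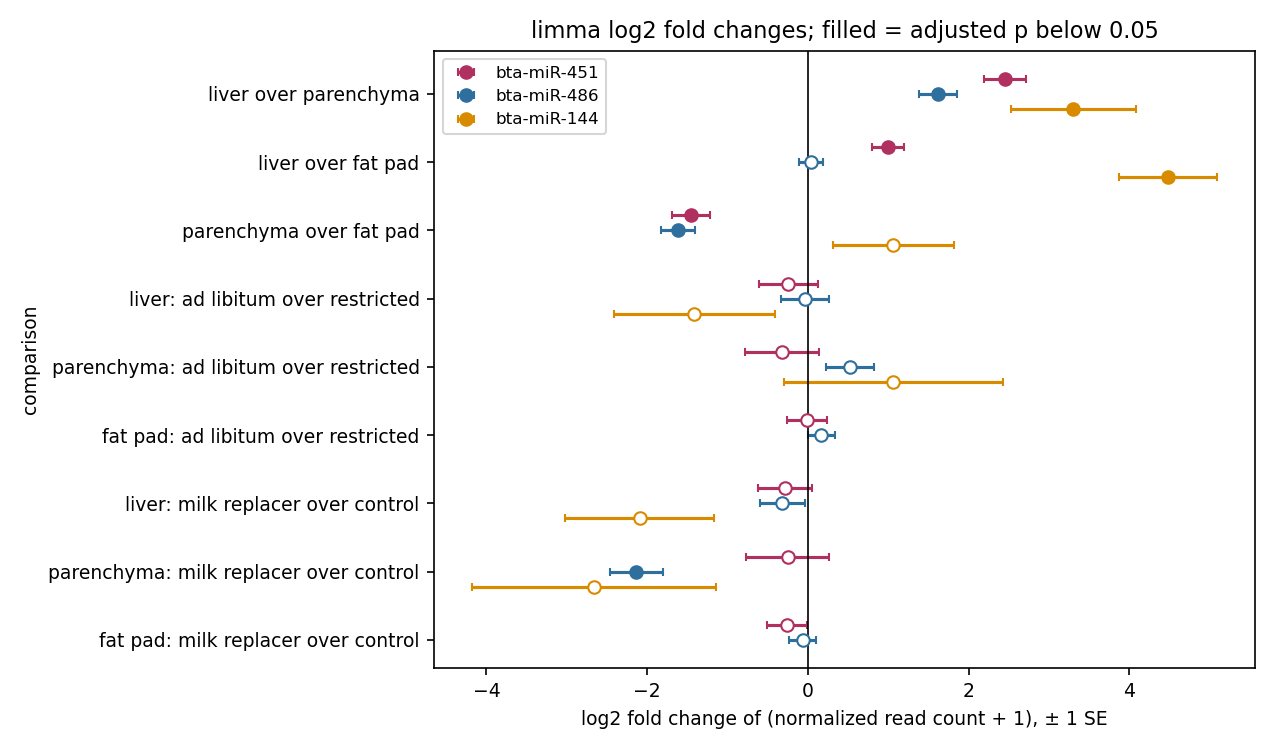
Log2 fold changes of the 3 miRNAs in 3 tissue and 6 feeding comparisons, with bars of 1 SE on each side and filled points for an adjusted p below the threshold. The tissue comparisons hold 7 filled points of 9, and the feeding comparisons hold 1, miR-486 in parenchyma at -2.13. The filled miR-144 points compare liver with sites where most samples had it listed at 0. Of all miRNAs tested 73.8%, 78.5% and 79.5% passed in the tissue comparisons, a share near that of the members, and 0.0% to 45.4% in the feeding comparisons.

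Other miRNAs that are abundant in red cells followed the members only in part. Of 11 such miRNAs, 6 were higher (54.5%, against 29.4% of all) and 1 was lower in liver than in parenchyma. In liver against the fat pad 8 were higher (72.7%, against the same 36.6% of all) and 1 was lower. In parenchyma against the fat pad 6 were higher (54.5%, against 47.6% of all) and 3 were lower (27.3%, against 31.8% of all). Both shares were near those over all miRNAs. The 3 that were lower were miR-16a at -1.32, miR-16b at -0.81 and miR-185 at -0.70, of which the miR-16 pair is known to repress cell cycle genes. In that comparison the list had a median log2 fold change of 0.44, close to 0.43 over all miRNAs. The 7 leukocyte miRNAs were also mostly higher in liver, 4 against parenchyma and 6 against the fat pad, and the part of blood in the tissue differences was not tested.

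The second question was whether feeding changes the 3 miRNAs. Between ad libitum and restricted animals none of them passed in any tissue. In liver miR-451 had lowest, median and highest values of 1202, 3429 and 6680 in ad libitum animals and of 1800, 3206 and 6697 in restricted animals (log2 fold change -0.25, SE 0.37, adjusted p = 0.948, limma). For miR-486 in liver they were 883, 1345 and 1822 in ad libitum animals and 700, 1368 and 3330 in restricted animals (-0.04, adjusted p = 1.00, limma). The groups overlapped almost fully. miR-144 in liver was 10.3 to 95.4 in the 5 ad libitum samples above 0, and 13.1 to 501 in restricted animals (-1.41, SE 1.00, adjusted p = 0.867, limma). In liver 0.324% of 309 miRNAs passed.

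In parenchyma miR-486 had lowest, median and highest values of 236, 440 and 496 in ad libitum animals, against 206.3, 267 and 343 in restricted animals. The difference did not pass (log2 fold change 0.53, SE 0.30, adjusted p = 0.981, limma). The share of miRNAs that passed there was 0.0% of 339 by limma, and 0 of them had an unadjusted p below the same limit. The fit used a common spread over the feeding groups, control included. The SD of miR-486 was 902 in control parenchyma, against 98.1 in ad libitum and 50.8 in restricted samples. A fit of this comparison without the control samples was not run, so the lack of calls does not show that feeding had no effect. miR-451 in parenchyma was 350, 411 and 1757 in ad libitum and 424, 609 and 1388 in restricted animals (-0.32, SE 0.46). In the fat pad miR-451 was 1017, 1594 and 2675 in ad libitum and 1012, 1613 and 2734 in restricted animals, a change of -0.00 (SE 0.25). miR-486 in the fat pad was 1058, 1570 and 1799 in ad libitum and 1012, 1275 and 1639 in restricted animals (0.17, SE 0.17, adjusted p = 0.499, limma), where 16.6% of 301 miRNAs passed. miR-144 was not tested in the fat pad because its mean was under 10.

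Between milk replacer and control only miR-486 in parenchyma passed. Its lowest, median and highest values were 206.3, 323 and 496 normalized read counts in the 12 milk replacer samples, against 2495, 1664 and 692 in control replicates 1, 2 and 18. Every control sample was above every milk replacer sample. The log2 fold change was -2.13 (SE 0.33, adjusted p = 5.67e-05, limma), where 45.4% of 339 miRNAs passed in either direction and 15.3% passed as lower. The change was larger in size than in liver by 1.82 (SE 0.39, adjusted p = 0.000145, limma, liver minus parenchyma) and than in the fat pad (-2.07, SE 0.40, adjusted p = 9.43e-05, limma, parenchyma minus fat pad). Among all miRNAs 40.3% and 25.8% passed these tests of the difference.

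These are the 3 control samples with the low epithelial miRNAs given above. Their endothelial miR-126 arms summed to 426790, 172750 and 361390 normalized read counts, against 52569 to 106700 in the milk replacer samples. Their 5 striated muscle miRNAs summed to 2657, 1308 and 2566, against 658 to 2644 in the milk replacer samples. The 11 red cell miRNAs besides the members summed to 46295, 26596 and 59467, against 28242 to 40657 in the milk replacer samples. In 2 of the 3 controls that sum was above every milk replacer sample, and in the other below all of them. The sum is weighted towards its 2 largest miRNAs and is no measure of red cell content. These were miR-92a-1, with means of 18202 in control and 15204 in milk replacer parenchyma, and miR-25, with 14418 and 9747. The leukocyte miRNAs summed to 5376, 5059 and 100530, against 6705 to 15777 in the milk replacer samples. The largest of them in milk replacer parenchyma was miR-146b, at 4118 to 10836, against 370 to 4040 in the controls. The median log2 fold change of the 7 leukocyte miRNAs for milk replacer over control was -1.09, against 0.135 over all miRNAs. That median includes control replicate 18, the sample with the leukocyte sum of 100530, and was not computed without it. It therefore does not show that leukocyte miRNAs are higher in control parenchyma in general. In all 4 control fat pad samples miR-486 was 1117 to 1912. The part of this tissue composition in the miR-486 difference was not tested, and with every control parenchyma sample low in epithelial miRNAs, feeding and composition cannot be told apart.

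**Figure D3:**
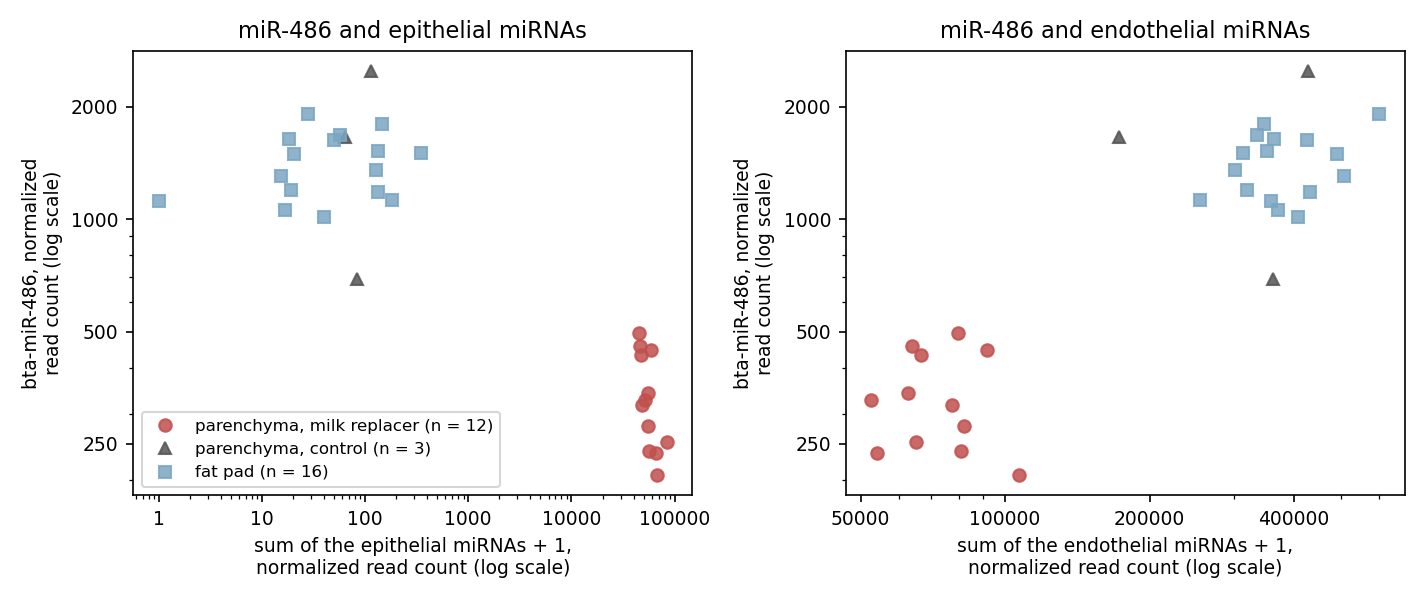
miR-486 in each parenchyma and fat pad sample against the sum of the epithelial miRNAs (left) and of the endothelial miRNAs (right), all on log scales of normalized read count. The 12 milk replacer parenchyma samples sit at 206.3 to 496, whereas the 3 control parenchyma samples sit at 692 to 2495 and share the low epithelial sums of the fat pad.

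miR-451 did not pass in the same comparison. It was 350, 520 and 1757 (lowest, median, highest) in milk replacer parenchyma, against 1226, 1156 and 251 in control replicates 1, 2 and 18 (log2 fold change -0.25, SE 0.51, adjusted p = 0.717, limma). Control replicate 18 was thus the lowest of all parenchyma samples in miR-451, while its miR-486 was above every milk replacer sample. miR-144 was 5.60, 512 and 0 in control replicates 1, 2 and 18 and 0 to 93.5 in milk replacer parenchyma (-2.66, SE 1.52, adjusted p = 0.172, limma). In parenchyma miR-144 reached the mean of 10 needed for the test only through control replicate 2, so without that sample, when the other controls stand at 5.60 and 0, it was not tested. Without control replicate 18 the value was -4.62 (adjusted p = 0.0235, limma), and this call too rests on the 512 of control replicate 2 and was chosen by the filter.

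In liver miR-144 did not pass either. Its lowest, median and highest values were 0, 25.1 and 501 in the 12 milk replacer samples, against 50.2, 367, 20.7, 314 and 124 normalized read counts in control replicates 1, 2, 18, 19 and 21. The groups overlapped, although 3 of 5 control samples were above every milk replacer sample but one. The log2 fold change of milk replacer over control was -2.09 (SE 0.93), with an unadjusted p of 0.0347 and an adjusted p of 0.206 (limma), in a comparison in which 6.8% of 309 miRNAs passed. miR-451 and miR-486 in liver changed by -0.29 (SE 0.34) and -0.32 (SE 0.28), and neither passed. In the fat pad, where 11.0% of 301 miRNAs passed, the changes were -0.26 (SE 0.25) for miR-451 and -0.06 (SE 0.17) for miR-486.

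The third question was whether the 3 miRNAs vary together between samples. In liver miR-451 and miR-486 did. Over 17 libraries r (Pearson) of their log2 values was 0.65, with p = 0.00423 in a permutation test and an adjusted p of 0.0212 among 5 relations tested, and the rank correlation rho (Spearman) was 0.61, with p = 0.0104 and an adjusted p of 0.0522 that missed the threshold (permutation test). Without ad libitum replicates 9 and 15, the 2 samples farthest from the median of miR-451, r was 0.78. On values without the log r was 0.66, and 0.46 without the 2 samples farthest on that scale. With each sample scaled to the same sum it was 0.74, and 0.46 without the 2 farthest. Restricted replicate 4 was the highest liver sample in both, with 6697 and 3330, and restricted replicate 8 was low in both, with 1800 and 700. Within the feeding groups r was 0.42 in ad libitum, 0.84 in restricted and 0.96 in control animals, with 6, 6 and 5 samples. The r with log2 reads was -0.22 for miR-451 and -0.21 for miR-486.

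In the mammary sites the relation of the same pair did not pass. In the 16 fat pad libraries r was 0.10 (permutation test, p = 0.708, adjusted p = 0.832) and rho was 0.21. In the 12 milk replacer parenchyma libraries r was 0.13 (permutation test, p = 0.674, adjusted p = 0.832) and rho was 0.02. Within the fat pad r was -0.51 in the 6 ad libitum and 0.73 in the 6 restricted samples. The difference in r between the tissues was not tested, and miR-486 spread little in the fat pad, with a highest value only 1.89 times the lowest, against 4.76 times in liver.

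**Figure D4:**
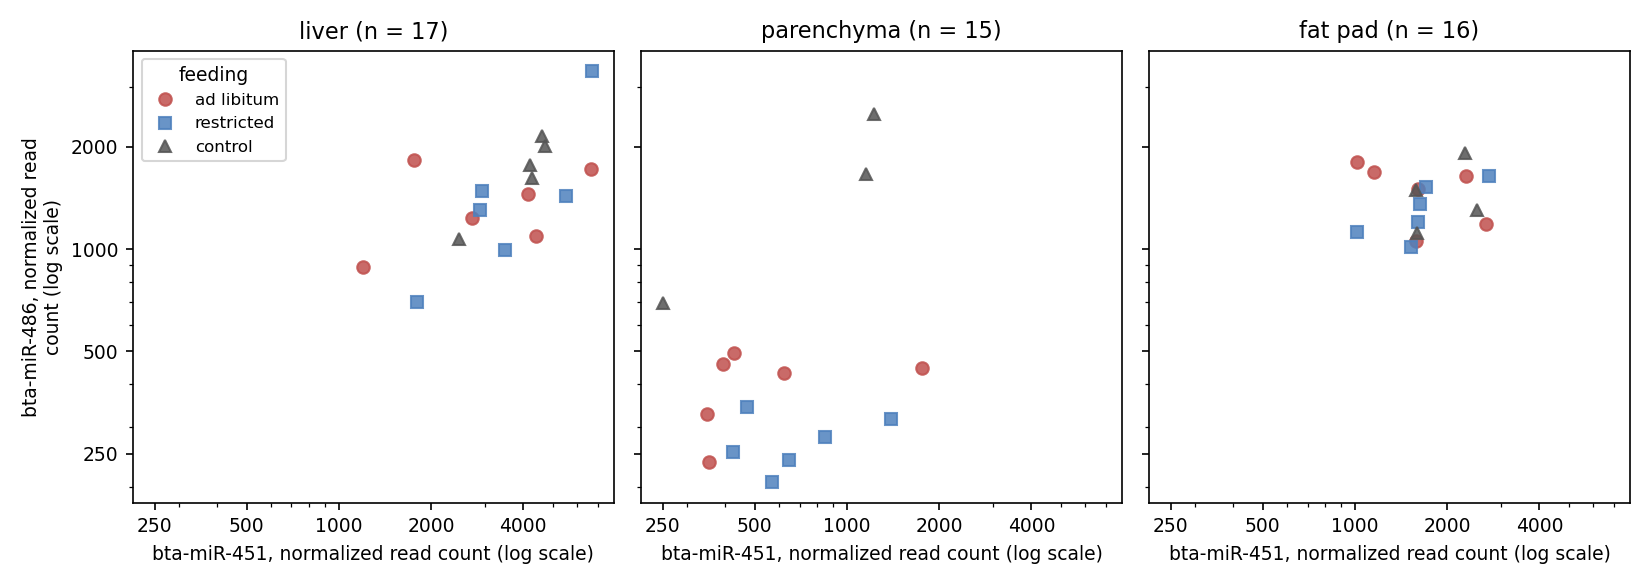
miR-486 against miR-451 in each sample of the 3 tissues, as normalized read counts on log scales. In liver the points rise together (r 0.65), in the fat pad they form no line (r 0.10), and the 3 control parenchyma samples lie above the other parenchyma points.

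The relation of miR-144 with its neighbour miR-451 did not pass in liver. In the 17 libraries r was -0.20 (permutation test, p = 0.439, adjusted p = 0.832) and rho was -0.03. Restricted replicate 8 had the highest liver miR-144, 501, beside the lowest miR-486 and one of the lowest miR-451 values, whereas ad libitum replicate 6 had miR-451 at 6680 and miR-144 at 0. In the latter library 6 reads would have given 37.2, above the liver median of 31.2, so its miR-144 is not shown to be low. Both r and rho nevertheless took it as the lowest value. The ratio of miR-144 to miR-451, as a percentage, had a median of 0.856% over the liver samples and was highest in restricted replicate 8, at 27.9%. miR-144 and miR-486 in liver had an r of 0.06 (permutation test, p = 0.832, adjusted p = 0.832), and leaving out the 2 samples farthest from the median of miR-486 gave 0.46. In the mammary sites so many samples had miR-144 listed at 0 that no p was computed. There r with miR-451 was 0.53 in the fat pad and 0.54 in milk replacer parenchyma, and in milk replacer parenchyma 0.22 without 2 samples.

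**Figure D5:**
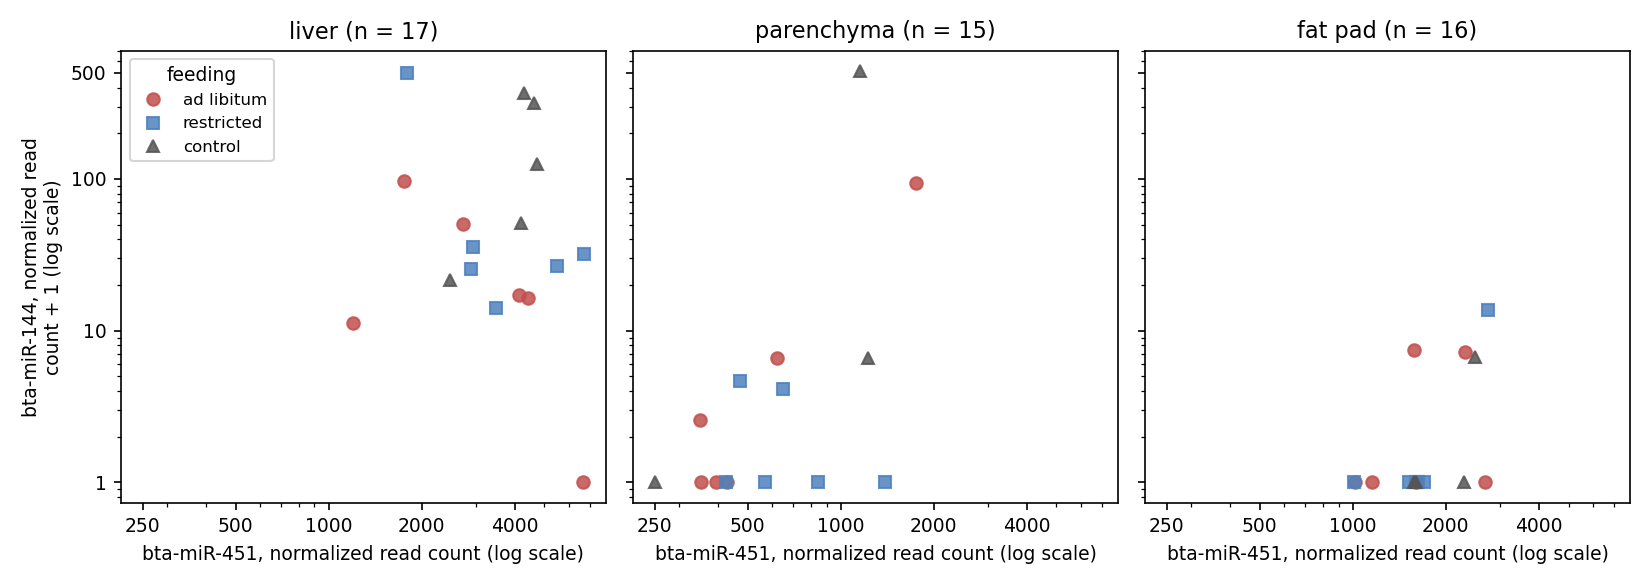
miR-144 (normalized read count + 1) against miR-451 in each sample of the 3 tissues, on log scales. In liver the points form no rising line (r -0.20), with the 3 samples of highest miR-451 at 25.9, 0 and 31.2 in miR-144. The 0 comes from a library in which 6 reads would have given 37.2. Most mammary samples lie at the bottom, where miR-144 is listed at 0.

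The ratio of miR-451 to miR-486 within a sample does not depend on the size factor. Its median was 2.35 in liver, 1.43 in parenchyma and 1.27 in the fat pad. On the log2 scale liver exceeded the fat pad by 0.96 (permutation test, adjusted p = 9e-05 over 6 comparisons). Liver exceeded parenchyma by 0.76 (permutation test, adjusted p = 0.0228), but by 0.38 without the control samples (permutation test, adjusted p = 0.134). Parenchyma exceeded the fat pad by 0.20 (permutation test, adjusted p = 0.504), and by 0.58 without the control samples (permutation test, adjusted p = 0.0446). The ratio was 0.491, 0.695 and 0.362 in control parenchyma replicates 1, 2 and 18, against a median of 1.59 in milk replacer parenchyma. The ratio of miR-144 to miR-451, with 1 added to both, was higher in liver than in the fat pad by 3.52 on the log2 scale (permutation test, adjusted p = 6e-05), a value that falls to 1.29 with a pseudocount of 10 (permutation test, adjusted p = 0.0132). In fat pad samples with miR-144 listed at 0 the pseudocount and miR-451 set this ratio, so the difference is no exact ratio of levels. Parenchyma exceeded the fat pad in this ratio too, by 2.47 (permutation test, adjusted p = 0.00036) and by 1.99 without the control parenchyma samples (permutation test, adjusted p = 0.00216). There miR-451 was lower and miR-144 itself did not pass, and 8 of 15 parenchyma and 12 of 16 fat pad samples had miR-144 listed at 0. In a sample with miR-144 at 0 this ratio reflects miR-451 alone, so the lower miR-451 in parenchyma by itself raises it. The test of this ratio between the mammary sites thus largely repeats that of miR-451 and shows nothing separate about miR-144.

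The numbers in the labels were also used to set tissues side by side. A number with high miR-451 in liver tended to have more in parenchyma, but this did not pass (r 0.43 for 15 numbers, permutation test, p = 0.110, adjusted p = 0.600 for 6 relations). The other 5 relations of miR-451 and miR-486 between tissues had r of -0.17 to 0.30.

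The miRNAs whose pattern was most like that of a member differed by tissue. In liver the closest of 308 miRNAs to miR-451 was miR-486 itself (r 0.65), followed by miR-425-5p (0.55) and miR-652 (0.52), and the closest to miR-486 was miR-451. The closest to miR-144 in liver were miR-660 (0.87), miR-30e-5p (0.74) and miR-101-1 (0.73), while miR-451 took place 225. In the fat pad the closest of 300 to miR-451 were miR-32 (0.87), miR-30e-5p (0.82) and miR-192 (0.82), with miR-486 at place 121. The closest to miR-486 there were miR-30c (0.73), miR-30b-3p (0.64) and miR-139 (0.62). In milk replacer parenchyma the closest of 332 were miR-136 (0.84), miR-2285k-1 (0.82) and miR-1185 (0.81) for miR-451, and miR-378-1 (0.86), miR-378c (0.84) and miR-432 (0.83) for miR-486. These are correlations over 17, 16 and 12 libraries, given as a description, and all miRNAs of a library share its depth and size factor.

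The red cell miRNAs besides the members had widely spread r with miR-451 in each tissue, and differences between tissues were not tested. In the fat pad the 11 miRNAs had a median r of 0.55, against -0.03 for all 300 miRNAs, between -0.14 for miR-15b and 0.63 for miR-185. In milk replacer parenchyma the median was 0.34 against 0.06, between -0.70 for miR-92a-1 and 0.81 for miR-15a, with miR-363 and miR-15b also negative. There the 7 leukocyte miRNAs had a median of 0.51 and the 3 striated muscle miRNAs with a mean of at least 10 one of 0.47, both above that of the red cell list. In liver the red cell list had a median of 0.01 against -0.03, between -0.64 for miR-185 and 0.30 for miR-16a. With miR-486 the median r of the list was -0.07 in the fat pad, -0.27 in milk replacer parenchyma and -0.19 in liver. The 2 endothelial miR-126 arms had r of 0.61 and 0.74 with miR-451 in the fat pad, and of 0.62 and 0.65 in milk replacer parenchyma.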

How the data were processed

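The authors made small RNA libraries from total RNA by ligating adaptors, followed by PCR. Tools named in the submitters' notes are DESeq2, Trim Galore, FastQC and bcl2fastq. The study's methods name miRDeep2, sRNAbench and UEA sRNA Workbench, with miRBase and the cow genome UMD, for a comparison of programs on part of these libraries. Which program and build made the deposited table is not given in the sources used here. Deposited values are a signal, namely reads per mature miRNA over a size factor of the library. The authors' own fold changes and p-values in the same table were not used. All values were whole multiples of 1 step per library (tolerance 0.01), whose sum estimated the reads. Each of 109 pairs of samples within a group differed by more than counting error. Nothing says that samples of a group are separate animals, so p-values measure the spread between samples. Ligation favours some sequences, so places, sums over lists and ratios of different miRNAs do not give their true relative amounts. The tests compare values between samples.

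limma 3.58.1 in R 4.3.3 was run on log2(value + 1) with a variance trend, over miRNAs with a mean of at least 10, with Benjamini-Hochberg adjusted p below 0.05 as the threshold. Tissue fits had feeding as a term. Feeding fits used 1 tissue with a common spread over its feeding groups, control included, and differences of feeding effects used all 48 samples. Milk replacer is the mean of ad libitum and restricted. Correlations and ratios used two-sided permutation tests (100000 resamples, Python 3.11.15). Scripts were tested on simulated data. Named miRNAs are the 3 members, the lists of cell type miRNAs, of which miR-208b was not analysed here, and the 3 with the highest r. Members and lists were chosen with earlier results of these data known.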

Additional observations from a re-analysis of the deposited data

Results flagged for a closer look

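Of 24 groups of 4 to 6 samples, 7 held a sample whose gap to the others was large for the range of its group. About 1 in 20 groups of normally distributed values would pass this cutoff. The values here were not logged, and those of miR-144 were skewed and often 0, so 7 of 24 cannot be read as an excess. For miR-144 the flagged samples were restricted replicate 8 in liver at 501 normalized read counts, ad libitum replicate 7 in parenchyma at 93.5, restricted replicate 10 in the fat pad at 12.8, and control replicate 19 in the fat pad at 5.75. In the last 2 groups every other sample was listed at 0, which by itself makes the gap the whole range. The 5.75 of control replicate 19 is 6 reads, the fewest that can be listed, and 6 reads would have given 14.0, 6.84 and 10.8 in its group mates, so it is not shown to lie apart from them. For miR-451 they were ad libitum replicate 7 in parenchyma, high at 1757, and control replicate 18 in liver, low at 2474. For miR-486 it was restricted replicate 4 in liver at 3330.

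Of 18 tests of a difference in feeding effect between tissues, 2 passed, both for miR-486 under milk replacer over control. The effect in liver minus that in parenchyma was 1.82 (adjusted p = 0.000145, limma), and the effect in parenchyma minus that in the fat pad was -2.07 (adjusted p = 9.43e-05, limma). Both rest on the 3 control parenchyma samples that are low in epithelial miRNAs, and 40.3% and 25.8% of all miRNAs passed these 2 tests.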

How the results depend on the processing

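Nearly all alternative values kept their direction and their side of the threshold, and 14 did not. With log2 reads as a covariate, miR-144 in liver over parenchyma was 3.108 and lost its call; miR-486 was -0.09356 in liver over fat pad and 0.03241 in the fat pad under milk replacer over control. With each sample scaled to the same sum, miR-486 was -0.1279 in liver over fat pad, 0.1263 in liver under ad libitum over restricted and 0.1146 in the fat pad under milk replacer over control, and miR-451 was 0.0803 in parenchyma under milk replacer over control and 0.1407 in the fat pad under ad libitum over restricted. The difference of the miR-144 effects of milk replacer (liver minus parenchyma), an alternative added after seeing the data, was -0.02354. None of these values with a turned sign had passed before or passed then. The r of miR-144 and miR-486 in liver was -0.0644 without the log and -0.09642 after centring on feeding groups. Without control parenchyma the log2 ratio of miR-451 to miR-486 was 0.3845 for liver minus parenchyma (call lost) and 0.5788 for parenchyma minus fat pad (call gained). At a pseudocount of 10 the log2 ratio of miR-144 to miR-451 was -0.7131 for liver minus parenchyma. The causes were not tested.

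Leaving out single samples moved uncalled values across 0: miR-486 in liver over fat pad between -0.04683 and 0.1075; under ad libitum over restricted, miR-451 in liver between -0.4789 and 0.01578, miR-486 in liver between -0.232 and 0.2179 and miR-451 in the fat pad between -0.1487 and 0.1445; under milk replacer over control, miR-451 in parenchyma between -0.999 and 0.1432 and miR-486 in the fat pad between -0.1803 and 0.07801. miR-144 in parenchyma under milk replacer over control lay between -4.619 (without control replicate 18, the only call gained) and -2.487, a range that leaves out control replicate 2, without which miR-144 fell under the filter and was tested neither in parenchyma nor in parenchyma over fat pad. No call of a member was lost.

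With the replicate block the tissue changes were 3.32, 2.46 and 1.62 for miR-144, miR-451 and miR-486 in liver over parenchyma, and no call changed. Same-numbered samples deviated together (r above 0.1) in 9 of 16 pairs of liver and fat pad, 5 of 15 of liver and parenchyma, and 8 of 14 of parenchyma and fat pad. The median r was 0.127, 0.0663 and 0.124. Differently numbered samples were not set beside them, so this cannot show whether a number marks the same animal. The numbers were not taken as pairs in the main fits.

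Counts over all miRNAs moved more. In liver over parenchyma 101 were higher and 152 lower, and 69 and 73 with log2 reads as a covariate. With all 48 samples in one fit, 35 passed against 21 in liver and 20 against 33 in the fat pad for milk replacer over control, and 10 against 50 in the fat pad for ad libitum over restricted. With log2 reads as a covariate 13 passed in liver for milk replacer over control. Equal sums gave 66 higher and 200 lower in liver over parenchyma, and in parenchyma over fat pad 197 and 70 in place of 160 and 107. Low reads limit miR-144 most.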
